A study of Mus musculus with 36 samples.

Results

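Liver gene expression was compared between male mice of the inbred strains DBA/2J and AKR/J after 6 h of enforced wakefulness. The members were the 3 arrays of sleep-deprived DBA/2J liver and the 3 arrays of sleep-deprived AKR/J liver, taken by their titles, which makes 6 of the 36 arrays of the series. All 45037 probe sets other than the array's own controls were compared, and 18193 genes were each read through their brightest probe set, by the mean of the 18 liver arrays. The other arrays covered brain and liver of both strains and of C57BL/6J, with home-cage controls. Both groups were 12 to 13 weeks old, carried no engineered allele and received no agent, were kept awake from light onset, and were killed at Zeitgeber time (ZT) 6, that is 6 h after the lights came on. The home-cage controls of the same strains were killed at ZT 6 by title, although the source names of AKR/J control arrays 2 and 3 give ZT 0. Each array carried equal amounts of whole-liver RNA from 3 mice, so that each group stood for 9 mice. The spread between arrays is therefore a spread between pools, and p-values measure differences against that spread and not against the spread between single animals. Strain differences cover the whole genomes of the strains, and handling that differed between the groups cannot be told apart from strain.

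Hepatocytes, which make up most of the liver's mass, take up nutrients, build and store glucose and fat, clear foreign compounds, and secrete most plasma proteins. Foreign compounds are usually oxidised by cytochromes P450 and other oxidases, then joined to sugars, sulfate or glutathione by transferases, and exported. The genes of these enzymes lie in large clusters of related copies that differ between inbred strains, as do the genes of the major histocompatibility complex (MHC). AKR/J carries the MHC haplotype called k, DBA/2J the haplotype d and C57BL/6J the haplotype b.

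The 6 arrays were closely alike. Correlations over all probe sets were 0.993 to 0.995 among the AKR/J arrays, 0.992 to 0.996 among the DBA/2J arrays and 0.982 to 0.989 between the strains. A pair of arrays stood apart. DBA/2J array 2 carried skeletal muscle transcripts: Acta1, the actin of skeletal muscle, read 11.71 there against 3.61 to 4.08 on the other 17 liver arrays, and Ckm, the muscle creatine kinase, read 9.78 against 4.44 to 4.84. The 5 muscle genes had a median strain difference of 1.72 on the log2 scale, and none of them passed the limma test described below (3 had an unadjusted p under 0.05). AKR/J array 1 read 11.46 for the nuclear RNA Malat1, against at most 10.40 on any other liver array. As a measure of RNA integrity, the 3' probe set of Actb read above its 5' probe set by 1.10 to 1.45 on AKR/J arrays and by 0.96 to 1.14 on DBA/2J arrays, and the same difference for Gapdh was 0.01 to 0.35 and -0.08 to 0.02. Hepatocyte markers were high in both strains: albumin (Alb) read a mean of 14.62 on AKR/J arrays and 14.66 on DBA/2J arrays, and 1 of 10 markers, the glucose-making enzyme gene Pck1, was called.

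A probe set or gene is called below when limma's two-sided test gave a Benjamini-Hochberg adjusted p under 0.05 over all 45037 probe sets. Differences are DBA/2J minus AKR/J on the log2 scale of the deposited values, where 1 is a doubling, and values after ± are limma's standard errors with n = 3 arrays per group. Of the probe sets, 2322 (5.16%) were called, 1310 higher and 1012 lower in DBA/2J. Among genes, 1222 (6.72%) were called, of which 712 (3.91%) were higher in DBA/2J and 510 (2.80%) were lower. The called genes had a median size of 0.60, and 147 were higher and 90 lower by 1 or more. Over all genes the median difference was -0.02. The number of calls fell to 1484 probe sets without DBA/2J array 2, to 1479 without DBA/2J array 1, and to 1142 without both arrays that stood apart, all with fewer arrays in the fit.

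**Figure D1:**
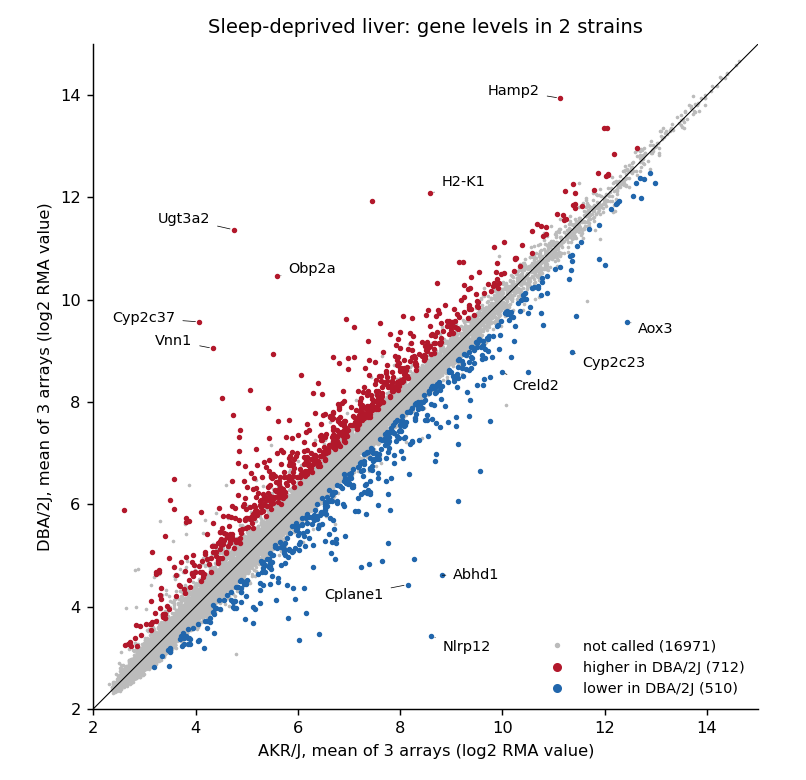
Mean level of 18193 genes in sleep-deprived liver of AKR/J (x axis) and DBA/2J (y axis), each the mean of 3 arrays in log2 RMA units, with the line of equal levels. Red points are the 712 genes called higher and blue points the 510 called lower in DBA/2J; Ugt3a2, Cyp2c37 and Vnn1 lie far above the line and Nlrp12, Abhd1 and Cplane1 far below it.

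The widest gaps were in genes that read near the bottom of the scale in 1 strain and at a high level in the other. Ugt3a2, a sugar transferase of the detoxification system, read 3.99, 4.86 and 5.38 on the AKR/J arrays and 11.31, 11.39 and 11.40 on the DBA/2J arrays. The difference was 6.63 ± 0.22 (adjusted p 1.13e-13), and no exact fold is given because the AKR/J values lie near the floor of the scale. The DBA/2J arrays hardly varied while the AKR/J arrays spread over more than 1 log2 unit. Cyp2c37, a cytochrome P450 that acts on arachidonic acid, read 5.07, 3.98 and 3.15 in AKR/J against 9.64, 9.67 and 9.39 in DBA/2J, a difference of 5.50 ± 0.29 (adjusted p 2.04e-10). In C57BL/6J liver after the same sleep deprivation both genes were at least as high as in DBA/2J, with means of 11.43 and 10.29, so AKR/J was the strain apart. Vnn1, the pantetheinase that releases vitamin B5 from pantetheine, showed the same order, with 4.58, 4.17 and 4.26 in AKR/J, 8.86, 9.15 and 9.13 on the DBA/2J arrays and a C57BL/6J mean of 9.08. Its difference was 4.71 ± 0.25 (adjusted p 2.45e-10), and its second probe set gave 4.20. Vnn3, the neighbouring pantetheinase, was higher in DBA/2J by 1.96 ± 0.10 (adjusted p 5.84e-11).

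Obp2a, a lipocalin that binds odorants, was high in DBA/2J alone. It read 4.80, 5.36 and 6.62 in AKR/J, 10.50, 10.49 and 10.37 on the DBA/2J arrays and a mean of 4.07 in C57BL/6J, with a strain difference of 4.86 ± 0.31 (adjusted p 3.35e-09). Corin, the protease that cuts the atrial natriuretic peptide precursor in the heart, behaved likewise, with 2.62, 2.53 and 2.64 in AKR/J, 5.91, 5.83 and 5.90 on the DBA/2J arrays and 2.55 in C57BL/6J. Rassf4, which encodes a Ras-association protein, read 5.71, 5.45 and 5.36 in AKR/J against 8.83, 9.04 and 8.92 in DBA/2J, and Crym, which encodes a protein that binds thyroid hormone, 3.46, 3.57 and 3.72 and 6.64, 6.39 and 6.46. C57BL/6J lay with AKR/J for both. Cap1, an actin-turnover protein made in nearly all cells, differed by 3.02 ± 0.13 (adjusted p 8.08e-12) and was the 1 gene of these 5 that was also called in brain, at 3.67. Pfn1 (profilin 1), another actin-binding protein, was higher in DBA/2J by 1.10 ± 0.08 in liver and by 1.13 in brain.

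Arsg, a lysosomal sulfatase, had 3 separate levels: 4.64, 4.26 and 4.62 in AKR/J, a mean of 6.64 in C57BL/6J, and 7.70, 8.21 and 8.33 in DBA/2J. Both of its probe sets were called, at 3.57 and 2.03. Hamp2, a copy of the hepcidin gene Hamp, read 11.11, 11.36 and 10.91 in AKR/J against 14.02, 13.80 and 14.00 in DBA/2J. The difference was 2.81 ± 0.21 (adjusted p 2.94e-08). The brightest Hamp2 probe set can also bind the closely similar Hamp transcript, and the second Hamp2 probe set, near the bottom of the scale, differed by 0.05. Ces1g, a carboxylesterase, differed by 2.69 ± 0.12, Akr1e1, an aldo-keto reductase, by 3.17 ± 0.20, and Card6, which encodes a caspase-recruitment domain protein, by 2.59 ± 0.13. 

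In the other direction, Nlrp12, a sensor protein of innate immunity, read 8.78, 8.55 and 8.51 in AKR/J against 3.51, 3.93 and 2.80 in DBA/2J, a difference of -5.20 ± 0.22 (adjusted p 6.97e-12). C57BL/6J, at 8.79, was as high as AKR/J. Abhd1, a hydrolase-fold gene, read 8.94, 8.73 and 8.80 in AKR/J against 4.48, 4.71 and 4.65 in DBA/2J, and Cplane1, which encodes a protein of cilium assembly, 8.11, 8.51 and 7.81 and 4.67, 4.17 and 4.45. For both the C57BL/6J means, 4.65 and 4.47, were at the DBA/2J level. Of the 7 probe sets of Cplane1, 2 were called lower and the other 5 were dim in both strains. Mme, the peptidase neprilysin, was tight in both strains at 6.41, 6.43 and 6.41 and 3.48, 3.49 and 3.42, a difference of -2.95 ± 0.23 (adjusted p 4.34e-08). Cyp46a1, the cholesterol 24-hydroxylase known from neurons, read 7.75, 7.89 and 7.31 in AKR/J liver and 4.87, 4.99 and 4.79 in DBA/2J liver, and differed by -2.77 ± 0.20. Tmem267 (difference -2.67 ± 0.21) and Gm16551 (-2.52 ± 0.25) were low in DBA/2J as well, and C57BL/6J stood with AKR/J for Tmem267 and with DBA/2J for Gm16551. Among genes with a mean of at least 10, Sdc4, a cell-surface heparan sulfate proteoglycan, read 11.59, 11.35 and 11.36 in AKR/J against 9.57, 9.77 and 9.69 in DBA/2J, a difference of -1.76 ± 0.12 (adjusted p 8.06e-09), which its dimmer probe set, at -0.42, did not show as a call.

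**Figure D2:**
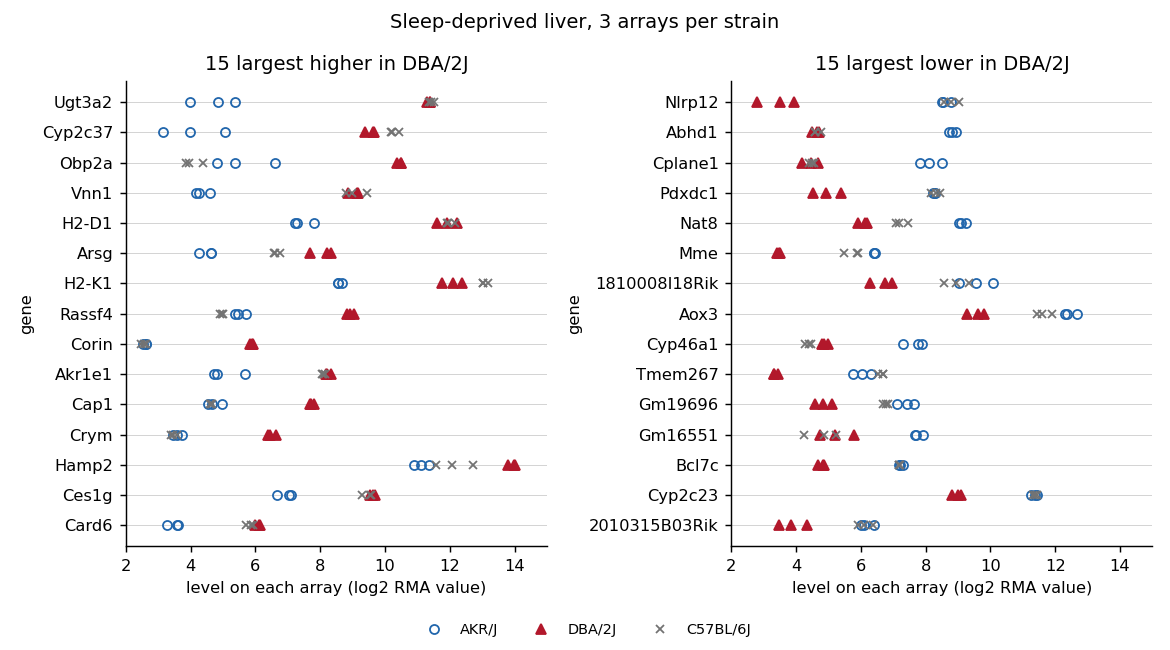
Levels on each array (x axis, log2 RMA value) of the 15 genes with the largest positive and the 15 with the largest negative difference in sleep-deprived liver, for AKR/J (blue circles), DBA/2J (red triangles) and C57BL/6J (grey crosses), 3 arrays each. C57BL/6J lies with DBA/2J for Ugt3a2 and Vnn1, with AKR/J for Nlrp12 and Bcl7c, and between both for Arsg and Nat8.

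Enzymes that clear foreign compounds differed gene by gene, and most of their lists held calls in both directions. List medians ran from -0.01 (glutathione S-transferases) to 0.17 (glucuronosyl transferases). Of 32 measured cytochromes P450 of family 2, 3 were higher and 3 lower in DBA/2J, with a median of 0.03. Besides Cyp2c37, Cyp2c55 was higher by 2.47 ± 0.23 (adjusted p 9.03e-07), while its relatives Cyp2c39 and Cyp2c23 were lower, at -1.56 ± 0.19 and -2.38 ± 0.13. Cyp2c23, an epoxygenase of arachidonic acid, read 11.42, 11.26 and 11.37 in AKR/J against 9.00, 8.81 and 9.09 in DBA/2J, well apart. The Cyp2c genes are near-copies of each other, so a probe set may also read a relative. In families 1, 3 and 4, 2 of 18 genes were higher and 1 was lower. Cyp3a13 read 9.58, 9.74 and 9.97 in AKR/J against 7.79, 7.65 and 7.44 in DBA/2J, and Cyp3a25 and Cyp4v3 were higher by 0.67 ± 0.12 and 0.47 ± 0.12. With each of the 6 arrays left out in turn, the higher ones numbered 1 to 4, with 4 without AKR/J array 3 and 1 without AKR/J array 1 or 2 or DBA/2J array 2 or 3.

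Aox3, the main aldehyde oxidase of mouse liver, was among the brightest genes with a large difference. It read 12.36, 12.29 and 12.67 in AKR/J against 9.28, 9.63 and 9.79 in DBA/2J, a difference of -2.87 ± 0.16 (adjusted p 2.89e-10), or 7.33-fold. Flavin monooxygenases, which oxidise nitrogen and sulfur in drugs and diet amines, gave 3 calls, all in the other direction: Fmo1 was higher in DBA/2J by 1.06 ± 0.12, Fmo2 by 0.88 ± 0.20 and Fmo4 by 1.14 ± 0.18. The size for Fmo2 depended on the probe set: 3 others were called at 1.80, 3.51 and 3.85, and the last, near the bottom of the scale, differed by 0.20. These 3 genes and Prrc2c (1.40 ± 0.20) are consecutive measured genes on the reference map, although the other 5 probe sets of Prrc2c were not called and had negative differences. In the list of 27 flavin monooxygenases, aldo-keto reductases and other oxidoreductases, 4 were higher, the other one being Akr1e1, and 1 was lower, Aox3, with a list median of -0.003.

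Among 12 measured glucuronosyl and related sugar transferases, Ugt3a2 and Ugt2a3 (0.52 ± 0.09, adjusted p 0.0010) were higher and none was lower. Glutathione S-transferases were called 6 times in 21, 1 higher and 5 lower. Mgst3, a membrane enzyme of that family, read 7.11, 7.33 and 6.83 in AKR/J against 9.07, 8.87 and 8.70 in DBA/2J, while Gstt3 (-0.91 ± 0.15), Gsto1 (-0.57 ± 0.09), Gstt1 (-0.46 ± 0.08), Gsta4 (-0.42 ± 0.10) and Gstk1 (-0.36) were lower. Without DBA/2J array 2 the lower ones numbered 3. The second Gsto1 probe set differed by -0.02 and was not called. Gclm, the regulatory subunit of the enzyme that starts glutathione synthesis, was lower in DBA/2J, at -1.01 ± 0.13 (adjusted p 4.05e-05), and was the 1 gene called of 28 oxidative stress and metallothionein genes. Sulfotransferases gave Sult1c2 higher (1.02 ± 0.16) and Sult5a1 lower (-0.55 ± 0.13) of 12. Of 16 carboxylesterases and relatives, Ces1g and Aadac (0.89 ± 0.09) were higher and Ces2b (-0.94 ± 0.25) lower. The call of the lower sulfotransferase was lost without AKR/J array 1 or DBA/2J array 3, and that of the lower carboxylesterase without AKR/J array 1 or 3 or DBA/2J array 1 or 2.

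The longest of the 20 runs of at least 3 neighbouring called genes was made of N-acetyltransferases of the Nat8 group, which acetylate cysteine conjugates on the way to urinary mercapturates. Its 5 genes were found because they were called, and each was lower in DBA/2J. Nat8 read 9.10, 9.02 and 9.25 in AKR/J against 6.18, 6.11 and 5.90 in DBA/2J, a difference of -3.06 ± 0.11 (adjusted p 1.27e-12), with C57BL/6J between them at 7.24. The differences of Nat8f5, Nat8f4, Nat8f2 and Nat8f1 were -1.92 ± 0.17, -0.83 ± 0.10, -0.47 ± 0.13 and -0.42 ± 0.09. Both further probe sets of Nat8f2, also bright, differed by -0.27 and -0.10 and were not called, while both further probe sets of Nat8f4 were called lower. Nat8f2 missed the threshold in 10 of 19 alternative settings, Nat8f1 in 2, and Nat8f4 and Nat8f5 in 1 each, while Nat8 missed it in none.

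Genes of antigen presentation were called higher in DBA/2J more often than lower. Of 16 MHC class I and antigen-processing genes, 7 were higher and 1 was lower, with a median of 0.40 against -0.02 over all genes. H2-K1 and H2-D1, the classical class I heavy chains, led with 3.49 ± 0.14 and 4.48 ± 0.22. H2-K1 read 8.54, 8.54 and 8.69 in AKR/J against 12.11, 12.37 and 11.75 in DBA/2J. The heavy chains are the most variable genes between haplotypes, and their probe sets disagreed. Of the 9 probe sets of H2-D1, the extremes were 7.43, reading a mean of 4.10 in AKR/J against 11.53 in DBA/2J, and -4.59, reading 11.12 in AKR/J against 6.53 in DBA/2J. Both of these were low in C57BL/6J, at 4.07 and 6.85, so each detected the transcript of 1 strain at a high level. Of the 4 probe sets of H2-K1, 2 were called higher and 2 differed by 0.20 and 0.34 without passing. The summed level of the heavy chains cannot be read from such probe sets. Nlrc5, the activator of class I genes, differed by 1.17 ± 0.17 (adjusted p 1.30e-04), Tap1, the peptide transporter, by 1.13 ± 0.17, and the immunoproteasome subunit Psmb8 by 0.78 ± 0.18. H2-Q10, a secreted class I molecule made by the liver, was lower at -0.53 ± 0.08.

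MHC class II genes, which antigen-presenting cells express, gave 5 of 12 higher and none lower, with a median of 0.45. H2-Eb1 read 6.37, 6.49 and 6.47 in AKR/J against 7.57, 7.60 and 7.51 in DBA/2J, and H2-Ab1 6.02, 5.51 and 5.97 and 6.83, 7.08 and 6.79. H2-Aa (0.76 ± 0.14), H2-Ea (0.59 ± 0.13) and the protease Ctss (0.96 ± 0.22) were the other 3. Another H2-Aa probe set was called at 0.80, but a further one of similar level differed by 0.33 without a call, and the dimmest by -0.08. A second H2-Ea probe set was called at 3.16, and the third, near the bottom of the scale, differed by 0.04. The brightest H2-Ea probe set read a mean of 6.34 in AKR/J and 6.31 in C57BL/6J. The part of haplotype differences under the class II probes was not tested. Without AKR/J array 1, 3 of the 12 were called, and without both arrays that stood apart 2 were, with a median of 0.55. Ifi202b, a DNA-binding member of the Ifi200 family, read 5.70, 6.16 and 6.15 in AKR/J against 7.67, 7.63 and 6.74 in DBA/2J against 3.25 in C57BL/6J, and was the 1 gene called of the 8 measured in that family.

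Interferons are cytokines of antiviral defence that switch on a common set of genes through interferon-stimulated response elements (ISRE). Of 31 measured interferon-stimulated genes, 16 were higher in DBA/2J and 1 was lower, with a median of 0.79. Gbp6, a guanylate-binding protein, read 6.46, 6.32 and 7.30 in AKR/J against 9.30, 9.10 and 8.21 in DBA/2J, a difference of 2.18 ± 0.31 (adjusted p 1.29e-04). Usp18, which trims the ubiquitin-like protein Isg15, read 6.35, 6.39 and 6.65 and 8.71, 8.13 and 7.61, and Irf7, a transcription factor of the response, 7.22, 6.92 and 6.80 and 9.06, 9.08 and 7.77. These 3 genes were named for the size of their difference, so the lack of overlap between their groups follows in part from that choice. DBA/2J array 3 was the lowest of its group each time. Ifit1, an RNA-binding antiviral protein, was higher by 1.56 ± 0.24 and Oasl2, of the oligoadenylate synthetase family, by 1.74 ± 0.28. Averaged over the 31 genes, the level was 6.54, 6.62 and 6.65 on the AKR/J arrays and 7.73, 7.50 and 7.003 on the DBA/2J arrays. The gene called lower, Xaf1, was read by 2 probe sets of opposite direction, at -0.95 and 4.16. Without both arrays that stood apart, 12 of the 31 were higher, with a median of 0.82.

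The promoters of these genes were searched for the ISRE letters GAAANNGAAA on both strands, in the 250 bases before and 50 bases after each start site in RefSeq (assembly GRCm38.p6, a C57BL/6J genome). A match was found in 3.44% of 32851 promoters and for 3.99% of 27025 genes. Of the 21 interferon-stimulated genes with a promoter in that table, 14 held a match, as did 6 of the 11 called ones. The match was thus not more frequent among the called genes. The stretches of 4 called genes on the plus strand are shown 5′ to 3′, because they show how close the elements lie to the start site and that Ifit1 and Ifit3 hold a pair each. Capitals mark the matches, which read as the reverse complement where they begin with TTTC. In order, they lie at chr19:34640749-34640848, chr19:34583345-34583444, chr11:58199477-58199576 and chr3:142530238-142530337.
Ifit1: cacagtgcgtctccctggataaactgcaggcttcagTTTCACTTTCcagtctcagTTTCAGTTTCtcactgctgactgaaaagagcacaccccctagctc
Ifit3: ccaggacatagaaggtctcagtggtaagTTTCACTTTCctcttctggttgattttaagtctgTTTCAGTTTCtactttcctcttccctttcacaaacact
Igtp: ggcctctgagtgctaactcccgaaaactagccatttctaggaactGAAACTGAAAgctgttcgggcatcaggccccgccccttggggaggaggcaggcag
Gbp7: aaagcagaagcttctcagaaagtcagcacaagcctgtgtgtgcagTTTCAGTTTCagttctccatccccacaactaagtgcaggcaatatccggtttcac
Ifit3 was higher in DBA/2J by 1.33 ± 0.21, Igtp, an interferon-inducible GTPase, by 1.04 ± 0.14, and Gbp7 by 1.07 ± 0.19, all with an adjusted p of 0.0015 or less. A match describes these letters in the reference and is no evidence of binding in either strain.

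Several markers of macrophages, the liver's Kupffer cells among them, were also higher in DBA/2J. All 12 had a positive difference, 6 of 12 passed the test and the median was 0.74. Csf1r, the receptor for their growth factor, read 8.97, 9.25 and 9.34 in AKR/J against 10.06, 10.27 and 9.67 in DBA/2J, a difference of 0.82 ± 0.16 (adjusted p 0.0032). Vsig4, a complement receptor of Kupffer cells, differed by 0.94 ± 0.24, and Adgre1, a surface receptor used to mark macrophages, by 0.87 ± 0.24. The mean over the 12 genes was 7.04, 7.23 and 7.51 in AKR/J against 8.09, 8.44 and 7.48 in DBA/2J, so the groups overlapped through DBA/2J array 3. The log2 of their summed level ranged from 11.16 to 11.64 in AKR/J but from 11.68 to 12.55 in DBA/2J, and no marker lay below the array median. Without DBA/2J array 2, 1 of the 12 was called with a median of 0.59, and without both arrays that stood apart none was, with a median of 0.46. The count was 1 without DBA/2J array 1, 2 and 3 without AKR/J arrays 1 and 2, and 9 without DBA/2J array 3. In bulk RNA, more cells of a type and more RNA per cell cannot be told apart. Macrophages express MHC class II, interferon-stimulated and complement C1q genes, and the part of their markers in those differences was not tested.

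The other marker lists gave few calls. None of 7 B cell, 8 T cell, 8 NK cell or 7 neutrophil markers was called by limma, and 1 of these 30, the NK cell gene Klrd1 at -0.29 ± 0.09, had an unadjusted p under 0.05. Of the T cell markers 4 of 8 lay below the array median, and Thy1 read 4.26, 4.15 and 3.92 in AKR/J against 4.33, 4.30 and 4.14 in DBA/2J, near that median. Of 5 erythroid markers, the transcription factor gene Klf1 (0.88 ± 0.14) and the heme synthesis gene Alas2 (0.47 ± 0.10) were higher in DBA/2J. Alas2 read 9.44, 9.52 and 9.54 and 9.98, 9.99 and 9.95, without overlap. Reln, made by stellate cells, was higher by 0.57 ± 0.11 and was the 1 call of 10 stellate cell markers. Epcam, of bile duct cells, was lower, at -0.35 ± 0.09, and was the 1 call of 6 bile duct markers. Upk3b, a marker of the mesothelium that covers the liver, was higher by 0.77 ± 0.20, with levels of 4.50, 5.49 and 4.69 on the DBA/2J arrays, the highest of them on the array that carried muscle transcripts. No marker of sinusoidal endothelium (9), pancreas (6) or adipocytes (4) was called by limma, and 1 of each list had an unadjusted p under 0.05. The calls of Epcam and Upk3b, and that of Pck1 among hepatocyte markers, were lost without AKR/J array 1 or 2 or DBA/2J array 2, and that of Epcam also without DBA/2J array 1 or 3.

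Complement, the plasma cascade that tags and lyses microbes, had 8 of 29 genes higher and 1 lower. C9, which forms the lytic pore, read 11.82, 11.97 and 12.36 in AKR/J against 13.29, 13.46 and 13.32 in DBA/2J, a difference of 1.31 ± 0.12 (adjusted p 5.85e-07), and C6 differed by 1.20 ± 0.13. C1qa (0.87 ± 0.19), C1qb (0.75 ± 0.21) and C1qc (0.74 ± 0.21) are neighbours and macrophage products, and were among the macrophage markers above. Cfhr2, related to factor H, was lower, at -0.89 ± 0.11, and its second probe set was called at -2.38. The higher complement genes numbered 3 without DBA/2J array 1 or 2, 4 without AKR/J array 1 or 2, and 7 and 8 without AKR/J array 3 and DBA/2J array 3. Of 21 serpins 3 were higher (14.3% called, against 6.72% of all genes). Serpina7, which carries thyroid hormone in plasma, led with 5.47, 6.09 and 5.91 in AKR/J against 7.77, 7.82 and 7.33 in DBA/2J. Coagulation factor gene F11 was higher by 0.57 ± 0.11, and the other 27 measured coagulation genes were not called.

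Some acute phase genes varied widely within the groups. Saa1, the serum amyloid A gene, read 10.40, 11.75 and 12.81 in AKR/J against 9.94, 10.71 and 9.27 in DBA/2J, and its difference of -1.68 ± 0.88 did not pass (adjusted p 0.34). Of 29 acute phase genes Hamp2 alone was called, and the haptoglobin gene Hp differed by 0.15 ± 0.13. Mup10, a major urinary protein, read 11.52, 12.13 and 12.35 in AKR/J against 10.50, 10.71 and 10.86 in DBA/2J (-1.31 ± 0.18, adjusted p 1.01e-04) and was called. It is not in the list of major urinary protein and lipocalin genes, where Obp2a was the 1 call of 8. The Mup genes are near-copies that probe sets can hardly separate. Genes known to be male-biased in liver gave 5 higher and 4 lower of 23, and female-biased genes 5 higher and 1 lower of 29, all in male animals. Without single arrays these counts ranged from 2 to 5 higher and 2 to 5 lower for the male-biased list, with the fewest higher without AKR/J array 2 and the fewest lower without AKR/J array 3 or DBA/2J array 1, and from 3 higher (without DBA/2J array 1) to 5 for the female-biased list. Susd4 (-1.22 ± 0.15) and Cyp7b1 (-0.72 ± 0.19) were lower and Elovl3 (0.68 ± 0.19) higher among the former, and Rtn4 (1.36 ± 0.16) was higher among the latter.

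Fuel metabolism genes that passed the test were mostly higher in DBA/2J. In the list of fatty acid oxidation genes and targets of the fat-sensing receptor PPAR-alpha, 7 of 40 were higher and none was lower, with a median of 0.18. Vnn1 and Vnn3, the neighbouring pantetheinase genes described above, were among these 7. Ppara itself read 9.56, 10.14 and 9.96 in AKR/J against 10.68, 10.57 and 10.91 in DBA/2J, a difference of 0.83 ± 0.18 (adjusted p 0.0096), while its other 2 probe sets differed by 0.29 and -0.03 without a call. Fgf21, a fasting hormone of the liver, read 5.81, 5.81 and 5.50 and 7.02, 6.98 and 7.07, without overlap. Crot, which prepares peroxisomal fatty acids for export, was higher by 0.77 ± 0.12, and the reductases Decr2 and Decr1 by 0.75 ± 0.15 and 0.33 ± 0.09. Of 28 glucose-making and glucose-burning genes 5 were higher and none lower. Pfkfb3, which makes the activator of glycolysis fructose 2,6-bisphosphate, read 5.86, 5.26 and 5.72 in AKR/J against 7.87, 7.37 and 7.65 in DBA/2J, a difference of 2.01 ± 0.25. Pck1, the enzyme gene at the entry to glucose synthesis, differed by 0.59 ± 0.14, the glucose transporter Slc2a2 by 0.60 ± 0.09 and the transcription factor Foxo1 by 0.53 ± 0.11. Glycogen genes gave 4 higher and 1 lower of 22, among them the glycogen synthase Gys2 at 0.52 ± 0.13 (adjusted p 0.021), but the higher ones numbered 0 without AKR/J array 1 or DBA/2J array 1, 1 without DBA/2J array 3, and 2 without AKR/J array 3 or DBA/2J array 2. The glucose list fell to 3 without AKR/J array 2.

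Lipid storage genes split. Pparg, the fat-storage receptor, was higher in DBA/2J by 1.15 ± 0.12, Fabp2 by 0.87 ± 0.10 and the fatty acid transporter Cd36 by 0.98 ± 0.28, while Lpin1, a phosphatidate phosphatase, and Fabp5, a fatty acid carrier, were lower, at -1.12 ± 0.19 and -1.28 ± 0.24. Fabp5 read 10.94, 10.60 and 10.81 in AKR/J against 9.38, 9.90 and 9.23 in DBA/2J. Of 40 such genes 5 were higher and 2 lower. The higher ones numbered 2 without AKR/J array 1 or 2 or DBA/2J array 1 or 2, and 3 without AKR/J array 3. Cholesterol synthesis and uptake genes had a median of -0.26, with 2 of 23 called (8.7%, against 6.72% of all genes), both lower. Hmgcs1, an early enzyme of that path, read 11.93, 11.68 and 12.05 in AKR/J against 10.84, 11.12 and 10.42 in DBA/2J, a difference of -1.09 ± 0.24 (adjusted p 0.010), and Mvk differed by -0.49 ± 0.14. That count was 4 after quantile normalization and 1 after median centring, and ranged from 0 (without DBA/2J array 3) to 3 (without AKR/J array 2), with 1 without AKR/J array 1 or 3 or DBA/2J array 2. In bile acid metabolism, Cyp39a1, an oxysterol hydroxylase, read 6.02, 5.82 and 6.54 in AKR/J against 4.45, 4.18 and 4.44 in DBA/2J, and the bile salt export pump Abcb11 was higher by 0.56 ± 0.11, while 1 gene of that list was higher in place of 2 without AKR/J array 1 or DBA/2J array 1 or 3. Cyp7a1, the rate-limiting enzyme of bile acid synthesis, differed by -0.09 ± 0.25. Apobec1, the editing enzyme of apolipoprotein B transcripts, was lower, at -1.25 ± 0.14. Of 27 lipoprotein genes 1 was higher and 2 lower (11.1% called, against 6.72% of all genes). The higher one, Lipg (0.79 ± 0.20), was not called without AKR/J array 2 or 3 or DBA/2J array 1 or 3. The other probe sets of Lipg were called lower, at -1.34 and -0.56.

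The remaining lists gave between 1 and 5 calls each. The clock list gave Rora (0.48 ± 0.11) of 25, and Per1 differed by 0.34 ± 0.16, Per2 by -0.29 ± 0.19 and Nr1d1 by -0.03 ± 0.16, none of which passed. Dbp, a clock output gene, differed by 0.60 ± 0.19 (adjusted p 0.090). Genes induced by glucocorticoids gave 3 higher and 1 lower of 27 (14.8% called, against 6.72% of all genes), with Cebpd at 0.73 ± 0.19 and Hsd11b1, which regenerates the active hormone, at 0.34 ± 0.08. Fkbp5 differed by 0.52 ± 0.21 without passing. Iron and heme genes gave 2 higher and 3 lower of 25 (5 of 25, also above the share of all genes), among them Ppox (-0.59 ± 0.11) and Alad (-0.40 ± 0.09), both heme synthesis enzymes. Of 49 amino acid and urea cycle genes, Mccc1 (0.65 ± 0.09) was higher and Shmt1 (-0.47 ± 0.08) and Prodh2 (-0.55 ± 0.11) were lower. Another Shmt1 probe set was called in the opposite direction, at 0.45. Cell cycle genes gave 2 of 32, Mcm6 (0.80 ± 0.19) and Mcm4 (0.50 ± 0.14). Of 32 ribosomal protein genes 3 were lower (9.4%, against 6.72% of all genes), with Rps6 at -1.41 ± 0.09. Of 45 respiratory chain genes 2 were higher and 1 lower, the largest of them Cox5a at 0.36 ± 0.08. The shares called in the clock (4.0%), amino acid (6.12%), cell cycle (6.25%) and respiratory chain (6.67%) lists did not exceed the 6.72% of all genes. These small counts moved with single arrays: the glucocorticoid list had 1 higher without DBA/2J array 1 or 2, the clock list had none without AKR/J array 1 or DBA/2J array 1 and 2 without DBA/2J array 2, and the cell cycle list had none higher without AKR/J array 1 or DBA/2J array 2 and 1 without AKR/J array 2 or 3 or DBA/2J array 1. The iron list had 1 higher without AKR/J array 1 or 2 or DBA/2J array 1 or 2. The ribosomal list had 1 lower without AKR/J array 2 or DBA/2J array 1 or 2, and 1 respiratory chain gene was higher without AKR/J array 1 or 2 or DBA/2J array 1 or 2.

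**Figure D3:**
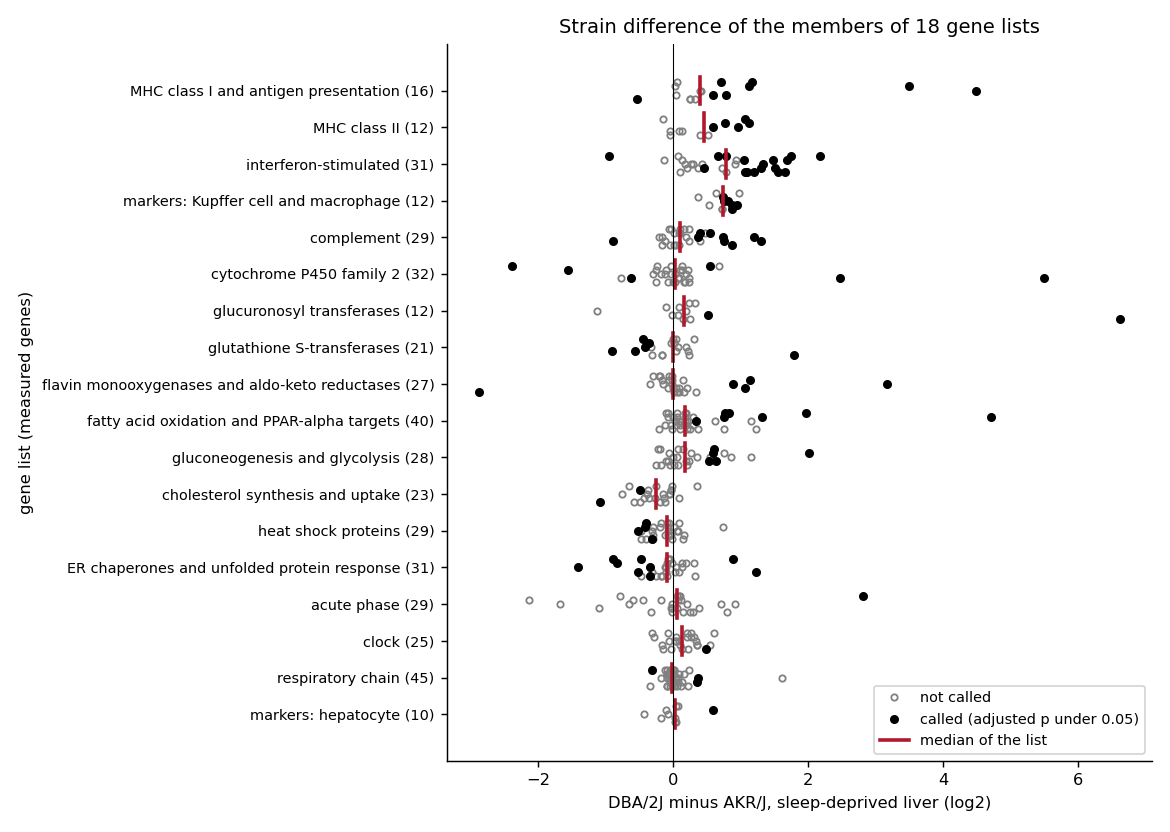
Differences DBA/2J minus AKR/J in sleep-deprived liver (x axis, log2) of the measured members of 18 gene lists (rows, with the number measured); filled points were called at an adjusted p under 0.05, open points were not, and red bars are list medians. The interferon-stimulated and macrophage lists have medians of 0.79 and 0.74, the enzyme families hold members far out on both sides, and the cholesterol list has a median of -0.26.

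Several chaperones of the endoplasmic reticulum (ER), where secreted proteins fold, were lower in DBA/2J than in AKR/J after sleep deprivation. When unfolded proteins build up, sensors in the ER membrane switch on chaperone genes through the ER stress response element (ERSE), and another branch switches on genes such as Chac1 and Trib3. Of 31 genes 7 were lower and 2 higher, with a median of -0.09. Creld2, an ER protein induced by such stress, read 10.12, 9.76 and 10.09 in AKR/J against 8.54, 8.59 and 8.61 in DBA/2J, a difference of -1.41 ± 0.13 (adjusted p 6.04e-07). Manf, a secreted ER-stress protein, read 11.22, 11.17 and 11.49 and 10.31, 10.48 and 10.40, a difference of -0.90 ± 0.14 (adjusted p 2.86e-04). Syvn1, a ubiquitin ligase that clears misfolded proteins, differed by -0.83 ± 0.24, and Hspa5, the main ER chaperone BiP, by -0.35 ± 0.10. The cochaperones Dnajc3 and Dnajb11 differed by -0.52 ± 0.11 and -0.47 ± 0.10, and the disulfide isomerase P4hb by -0.34 ± 0.08. Further Dnajc3 probe sets differed by -0.38, which was called, and by -0.31, -0.29 and -0.09, which were not. The other Hspa5 probe sets, at -0.32 and -0.29, were not called. Chac1 and Trib3 were the 2 higher ones, at 1.23 ± 0.21 and 0.89 ± 0.21. The calls of Hspa5 and Syvn1 were near the threshold and were missed in 13 and 12 of 19 alternative settings. The higher ones numbered 1 without DBA/2J array 1 and 3 without AKR/J array 3. The lower ones numbered 3 without DBA/2J array 1, 4 without DBA/2J array 2 or 3 or AKR/J array 1, and 3 without both arrays that stood apart, and median centring and quantile normalization gave 5 and 9. Among 29 heat shock proteins 4 were lower and none higher, 1 of them again Dnajc3. In that list 2 were lower without AKR/J array 1 or 2 or DBA/2J array 3, 1 was lower without AKR/J array 3 or DBA/2J array 1, and none without both of the arrays that stood apart (11 had an unadjusted p under 0.05 with all arrays).

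The ERSE letters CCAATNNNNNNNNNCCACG were searched on both strands of the same RefSeq windows, and occurred in 0.119% of promoters and for 0.137% of genes. Of 28 listed ER genes with a promoter there, 8 held a match, as did 4 of the 8 called ones. Hsp90b1, Calr, Canx and Pdia6 held a match and were not called. All 4 called genes with a match were lower, in a list with 7 lower and 2 higher calls. Their stretches are shown because each carries the whole element shortly before the start site, with its first base at position -126 in Creld2, -65 in Hspa5, -105 in Dnajc3 and -44 in Syvn1. All are written 5′ to 3′ on the plus strand, at chr15:88819479-88819578, chr2:34771984-34772083, chr14:118937786-118937885 and chr19:6046491-6046590, and capitals mark the match, which in Creld2 is on the reverse strand.
Creld2: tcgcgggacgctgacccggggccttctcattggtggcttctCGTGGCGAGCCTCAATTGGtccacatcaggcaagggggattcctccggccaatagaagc
Hspa5: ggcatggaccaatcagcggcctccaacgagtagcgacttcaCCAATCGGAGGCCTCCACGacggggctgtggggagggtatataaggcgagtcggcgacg
Dnajc3: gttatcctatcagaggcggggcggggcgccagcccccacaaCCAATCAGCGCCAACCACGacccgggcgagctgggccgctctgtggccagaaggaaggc
Syvn1: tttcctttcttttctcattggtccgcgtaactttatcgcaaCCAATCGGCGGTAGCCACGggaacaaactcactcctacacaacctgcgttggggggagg
The matches are a description of the reference sequence and are no evidence of binding in either strain. The list was chosen for genes of this response, so its share of matches is no result about the strains.

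Whether the strain difference was particular to sleep-deprived animals was tested against the home-cage controls of both strains in the same fit. Of all probe sets 7 (0.0155%) had a strain difference that differed between sleep-deprived and control liver, and 3873 had an unadjusted p under 0.05. By gene, 5 (0.0275%) were called. Creld2 led: it read 7.62, 7.68 and 7.67 in AKR/J controls and 10.12, 9.76 and 10.09 after sleep deprivation, and 8.53, 8.19 and 7.99 in DBA/2J controls and 8.54, 8.59 and 8.61 after sleep deprivation. The difference of differences was -1.99 ± 0.18 (adjusted p 8.6e-05), and DBA/2J was higher than AKR/J in controls by 0.58. This call was kept in all 22 alternative settings, with adjusted p up to 0.0101. Manf had -1.13 ± 0.19 (adjusted p 0.083) and Hspa5 -0.75 ± 0.14 (adjusted p 0.13), which did not pass. In controls 6 genes of the ER list were higher in DBA/2J and 1 was lower, with a median of 0.18, against 2 higher and 7 lower and a median of -0.09 after sleep deprivation. Of the 31 genes Creld2 alone passed the test of the change, and 14 had an unadjusted p under 0.05.

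Of the other 4 genes, Ifi47, an interferon-inducible GTPase, had -1.44 ± 0.23, Pla2g7, which inactivates platelet-activating factor, 1.19 ± 0.19, Ppp2r3a, a phosphatase subunit, 1.19 ± 0.19, and Rbm33, an RNA-binding protein, 1.06 ± 0.17, each with an adjusted p of 0.047. Ifi47 was higher in DBA/2J than in AKR/J controls by 1.03 and differed by -0.41 ± 0.17 after sleep deprivation, which did not pass. Pla2g7 read 3.67, 3.57 and 3.51 in sleep-deprived AKR/J and 6.04, 5.88 and 5.80 in sleep-deprived DBA/2J, and its strain difference was 2.32 ± 0.14 against 1.13 in controls. The interferon-stimulated list had 24 of 31 genes higher in DBA/2J among controls, with a median of 1.50, against 16 and 0.79 after sleep deprivation, and none of the 31 passed limma's test of the change, although 11 had an unadjusted p under 0.05. Ifi47, Pla2g7, Ppp2r3a and Rbm33 missed the threshold in 15 to 18 of 22 alternative settings. The number of probe sets whose strain difference changed ranged from 2 to 24 over the alternative settings, and was 24 without DBA/2J control array 3 and 2 when the AKR/J controls with unlike ZT labels were left out.

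**Figure D4:**
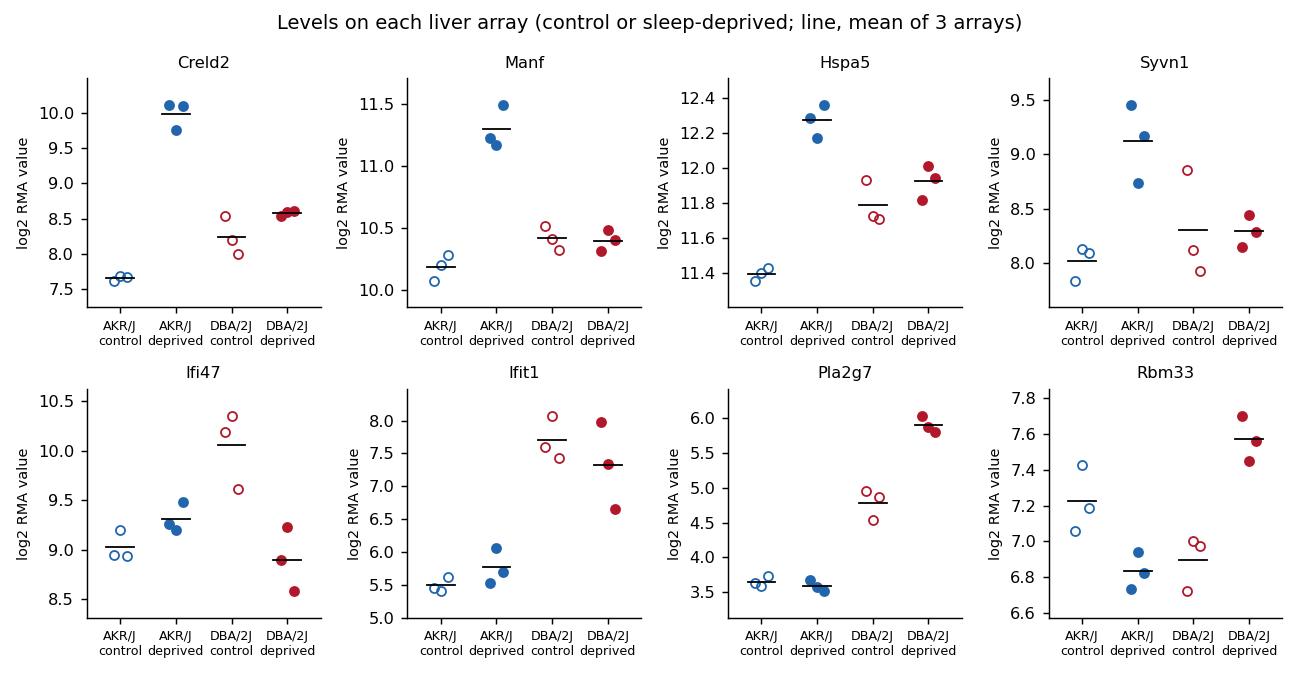
Levels on each liver array (y axes, log2 RMA value, each on its own range) of 8 genes in control (open) and sleep-deprived (filled) AKR/J (blue) and DBA/2J (red), 3 arrays per group, with lines at the means. Creld2 lies at 9.76 to 10.12 in sleep-deprived AKR/J and at 8.54 to 8.61 in sleep-deprived DBA/2J, while Pla2g7 is highest in sleep-deprived DBA/2J.

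Many of the strain differences were also found in controls, which share no array with the sleep-deprived groups. In control liver 1898 probe sets (4.21%) and 1071 genes (5.89%) were called, the former 726 with the 2 AKR/J controls of unlike ZT labels left out. Of the genes, 603 were called in the same direction in both conditions, which is 49.3% of the sleep-deprived and 56.3% of the control calls, and 2 were called in opposite directions. Of the 1222 genes called after sleep deprivation, 1123 (91.9%) had the same sign in controls. Their median size was 0.60 after sleep deprivation, the condition they were picked in, and 0.42 in controls. Of the 237 genes with a difference of 1 or more, 210 were called in controls in the same direction. Ugt3a2 differed by 6.68 in controls, Cyp2c37 by 5.79, Obp2a by 6.31 and Nlrp12 by -4.66. Across genes the 2 sets of differences had a Pearson correlation of 0.71 over all 18193 genes and 0.93 over the called ones, as a description over genes that are not independent and share a normalisation.

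**Figure D5:**
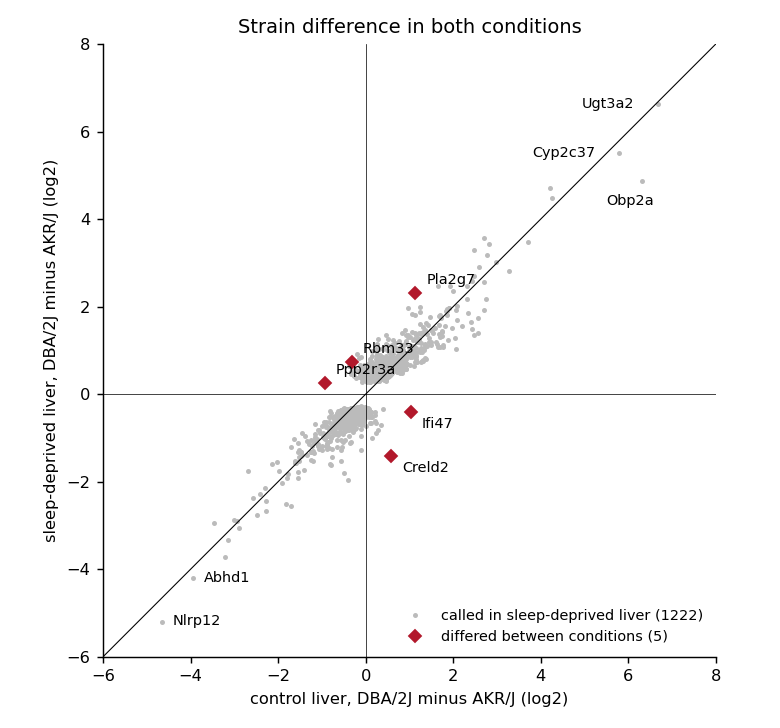
Strain difference DBA/2J minus AKR/J (log2) in control liver (x axis) and in sleep-deprived liver (y axis) for the 1222 genes called in sleep-deprived liver (grey) and the 5 genes whose difference changed between conditions (red diamonds), with the line of equal differences. Most called genes lie near the line, from Nlrp12 at the lower left to Ugt3a2 at the upper right, and Creld2 and Ifi47 lie in the lower right quadrant.

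Brain of the same strains after sleep deprivation shared a smaller part of the difference. There 704 probe sets (1.56%) and 280 genes (1.54%) were called, and 102 genes were called in the same direction in both tissues, which is 8.35% of the liver and 36.4% of the brain calls. Cap1, Pfn1, H2-K1 (2.73 in brain), Pdxdc1 (-2.82), Tmem267 (-2.97) and Abhd1 (-1.90) were among them. The liver difference itself differed from the brain difference for 1075 probe sets (2.39%) and 524 genes (2.88%), and for 833 probe sets without DBA/2J liver array 2. Ugt3a2, Cyp2c37, Obp2a, Vnn1, Arsg, Rassf4 and Corin, all higher in DBA/2J liver, and Nlrp12, Cplane1 and Mme, all lower, had the largest such differences among genes called in liver. In brain those 10 genes differed by no more than 0.19 in size, and none was called.

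C57BL/6J, deprived of sleep in the same way, was compared with both strains. Its mean lay between the other strains for 768 of the 1222 called genes, and it was nearer to AKR/J for 614 and nearer to DBA/2J for 608. Among the 237 genes with a difference of 1 or more it was nearer to AKR/J for 142 and nearer to DBA/2J for 95. Slc1a2, a glutamate transporter, was higher there (8.05) than in DBA/2J (6.75, 6.74 and 6.73) or AKR/J (4.66, 5.12 and 5.13), and Cyp39a1, at 7.77, was likewise above both.

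Different probe sets of a gene did not always give the same answer. Of the 1222 called genes, 516 had 1 probe set and 706 had several, and of the latter all probe sets were called in the same direction for 120, some others for 142, no other for 429 and another in the opposite direction for 15. Pdxdc1 showed the widest split after H2-D1: a probe set read a mean of 8.27 in AKR/J against 4.94 in DBA/2J, a difference of -3.33, and another 3.26 and 8.58, a difference of 5.32. In C57BL/6J both were at the AKR/J level, with 8.31 and 3.42. Mtm1, Dsg2, Camk2n1, Lipg, Rabgap1l and Shmt1 also had probe sets called in opposite directions, Camk2n1 at 1.04 and -0.93. Bases that differ between strains under a probe can change how well it binds, and the part of such bases, or of other transcript ends, in these differences was not tested.

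Called genes also lay next to each other in the reference gene order, in 20 runs of 3 or more. After the Nat8 group came P2ry6, P2ry2 and Fchsd2, all higher, with Atg16l2 lower (-1.58 ± 0.15), then the Fmo genes, then Tmcc1, Washc2, Zfand4 and Marchf8, all higher. Zfand4 read 5.42, 5.39 and 5.45 in AKR/J against 7.95, 8.01 and 7.69 in DBA/2J, and Marchf8 differed by 1.05 ± 0.10. Slc1a2 and Cd44 were higher and their neighbours Pdhx and Apip lower, so direction was not shared within that run. Corin was flanked by Atp10d, at -0.59 ± 0.16, and Nfxl1, at 0.68 ± 0.18. The runs were read from measured genes ordered by their RefSeq start positions. Genes that were not measured were skipped, and distances between genes were not used.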

How the data were processed

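RNA of pooled brain or liver was hybridised to Affymetrix mouse arrays. The deposited log2 values were made by the authors with RMA (robust multi-array average: background correction, quantile normalization and summary of each probe set), per the submitters' processing notes. Its version and the set of arrays normalized together are not given in the sources used here. The method draws values near background together, so large folds of genes that are low in a strain rest on that floor.

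The table held 45101 probe sets, of which 64 controls were left out. Platform annotation gave 34945 a single gene symbol, 932 several and 9160 none, and 34741 of the first were matched by gene ID to RefSeq (GRCm38.p6). Each of 18193 genes was read through its brightest probe set. The number of arrays limits the precision, and 3 against 3 exact permutations could not go below p = 0.1.

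Group means were fitted to the 18 liver arrays (6 groups) with limma 3.58.1 in R 4.3.3, with moderated variances and Benjamini-Hochberg adjustment over 45037 probe sets. The difference between conditions was a contrast in that fit, brain was fitted apart, and liver against brain in all 36 arrays. Alternatives covered the arrays in the fit, scaling, a filter on dim probe sets, variance models, a replicate block and leaving out arrays. Replicate numbers did not pair the arrays. Samples were grouped by their titles. Named genes were the 15 largest differences each way without overlap, the largest called genes of 35 gene lists and 14 marker lists, and leading genes of the other contrasts, 187 in all. Probe sets or genes named for their split or their place in a run of neighbours were picked after their values were seen, as were the genes of the promoter stretches. The comparison and the lists were chosen with earlier results of these data known.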

Additional observations from a re-analysis of the deposited data

Results flagged for a closer look

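The strain difference DBA/2J minus AKR/J in liver differed between sleep-deprived and control animals, by limma's interaction contrast, for 7 probe sets. The difference of differences was -1.99 for Creld2, -1.44 for Ifi47, 1.19 for Pla2g7, 1.19 for Ppp2r3a and 1.06 for Rbm33. The strain differences of Creld2 and Ifi47 were positive in controls. After sleep deprivation that of Creld2 was called lower in DBA/2J, while that of Ifi47, at -0.41, did not pass. Ifi47, Pla2g7, Ppp2r3a and Rbm33 missed the threshold of the interaction contrast in 15 to 18 of 22 alternative settings.

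Between liver and brain of sleep-deprived animals, the strain difference differed for 1075 probe sets. Liver minus brain, it was 6.65 for Ugt3a2, 5.54 for Cyp2c37, 5.04 for Obp2a, 4.86 for Vnn1, 3.46 for Arsg, 3.37 for Rassf4 and 3.35 for Corin. It was -5.22 for Nlrp12, -3.77 for Cplane1 and -3.14 for Mme. Single outlying arrays were not tested within groups of 3 arrays.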

How the results depend on the processing

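The 2322 probe sets called in sleep-deprived liver became 347 without moderation of the variances, 451 with a minimum difference of 1, 1479 to 2192 with an array left out in turn (fewest without DBA/2J arrays 1 and 2), and 1142 without both arrays that stood apart, a setting chosen after seeing the data. The other settings gave 1958 to 2787. The replicate block gave 2316, and no count other than that of the condition contrast moved by over 1.5 times with it. Median centring gave 1420 higher and 802 lower, against 1310 and 1012. Control liver gave 726 in place of 1898 when the 2 AKR/J controls with unlike ZT labels were left out. The 7 probe sets of the condition contrast became 24 in a fit of all 36 arrays, 13 with an intensity trend and robust variances, 4 with array weights or without both arrays that stood apart, 3 after quantile normalization, and 2 with the replicate block, median centring, the filter on dim probe sets, without the conflicting controls or without DBA/2J control array 1. Leaving out single arrays gave 2 to 24.

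Of 176 named genes called, 48 kept their call in every refit and 128 lost it in at least 1, 127 of them without moderation and 22 to 46 with any single array left out. Read as the median over a gene's probe sets, 6 genes changed sign, with Bcl7c at 0.024, Lipg at -0.56, Prrc2c at -0.16, Rabgap1l at -0.10, Tmcc1 at -0.012 and Xaf1 at 1.60. The cause of these changes was not tested. Pools of 3 mice, 3 arrays a group, and the floor of the RMA scale limit what small differences or low genes can show. Counts of gene lists with arrays left out were added after seeing the data.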
